A study of Mus musculus with 8 samples.

Results

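The Bcl2 family genes examined here were the survival genes Bcl2, Bcl2l1 and Mcl1, the BH3-only genes Bcl2l11, Bbc3, Pmaip1 and Bid, and the effector genes Bax and Bak1. Every ATAC-seq peak that overlapped one of these 9 gene bodies or the 50 kb on either side of it was taken as a member, without regard to its strength. The 8 peak lists held 928 such peaks of 501728 in all, which merged into 200 regions of 123260. Of these, 15 regions had their summit within 3 kb of a transcription start site (TSS) of the member gene, 49 within 3 kb of another gene's TSS, and 136 were distal to all TSSs. A peak was present in all 8 lists in 10, 17 and 18 of them, respectively.

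ATAC-seq marks open chromatin through the insertion of sequencing adapters by the Tn5 transposase. The libraries came from female mice, 4.5 months old, of a 129Sv4/Jae x B6 background. Sorted bone marrow cells entered each reaction. LSK+ cells carried no lineage markers and were positive for Sca-1 and c-Kit, a gate that contains the hematopoietic stem cells, while LSK- cells were lineage-negative, Sca-1-negative and c-Kit-positive myeloid progenitors. XistΔ/Δ mice combined homozygous floxed Xist with the Vav-iCre transgene, in which the Vav promoter drives Cre throughout the hematopoietic system. WT mice served as controls, and whether they carried the transgene is not given in the sources used here, so that Xist loss and Cre cannot be told apart. LSK+ WT, LSK+ XistΔ/Δ, LSK- WT and LSK- XistΔ/Δ had 2 libraries each. No label ties a library to a single animal. The permutation p-values below measure the spread between these libraries, and the limma p-values draw in addition on spread pooled over other regions.

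Proteins of the Bcl2 family decide whether the outer mitochondrial membrane is opened, the step that commits a cell to apoptosis. Survival members (BCL-2, BCL-XL from Bcl2l1, and MCL-1) bind and restrain the pore-forming effectors BAX and BAK, and BH3-only members (BIM from Bcl2l11, PUMA from Bbc3, NOXA from Pmaip1, and BID) relieve that restraint after stress. Blood cells depend on different survival members at different stages: MCL-1 is required by hematopoietic stem cells, and BCL-XL by maturing erythroid cells. PUMA, NOXA and BAX are targets of p53, and BIM responds to the loss of cytokine signals through FOXO factors.

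The lists differed in length and depth. They held 29829 to 91590 peaks, the XistΔ/Δ list being longer in all 4 pairs matched by cell type and number, and the LSK- list longer than the LSK+ list in 3 of 4. The genome-wide background pileup, which rises with depth, ran from 0.482 to 3.87 fragments, with LSK- XistΔ/Δ replicate 1 the deepest library. A promoter peak of Xist itself was listed in all 4 WT libraries (percentiles 51.2 to 80.6), was not listed in 3 XistΔ/Δ libraries, and was listed at percentile 26.9 in LSK- XistΔ/Δ replicate 2. Among cell type markers, groups did not overlap for 2 of 8 LSK- markers (Gata1 and Epor, higher in LSK-, against 1.73% of all coding genes). The same held for 1 of 8 LSK+ markers, higher in LSK+ (against 1.9%). The other markers overlapped, and the LSK- marker Klf1 was higher in LSK+ in 4 of 4 pairs (means 91.5 and 87.4). Kit had a promoter peak in all 8 lists, whereas Ly6a, which encodes Sca-1, had one in only 2. Of the markers of cells outside the gates, Cd3e and Ly6g had no promoter peak and Col1a1 had one in 8 lists (42.5 to 89.1). Of the 8 LSK- markers, 2 (Mpo and Elane) were also higher in XistΔ/Δ without overlap, against 7.9% of all coding genes. Their part in the results was not tested.

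Promoter accessibility was described by the percentile of each gene's strongest peak within 3 kb of a TSS, ranked by −log10 p within its own list (100 is the strongest peak, and 0 stands for no peak). All 9 genes had a promoter peak in all 8 lists. Ordered by the median over the 8 libraries, Mcl1 (94.5), Bcl2l1 (92.7), Bid (88.4) and Bcl2l11 (85.0) ranked highest, followed by Bax (80.9), Bak1 (77.9), Pmaip1 (74.5), Bcl2 (67.0) and Bbc3 (45.2). Neighbours in this order overlapped in their ranges, which were narrow for Mcl1 (90.4 to 96.9) and Bid (87.7 to 95.8) and wide for Bbc3 (26.9 to 74.1). In no gene did the LSK+ and LSK- libraries fall apart. In Bcl2 and Bak1 all 4 XistΔ/Δ libraries ranked above all 4 WT libraries.

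**Figure D1:**
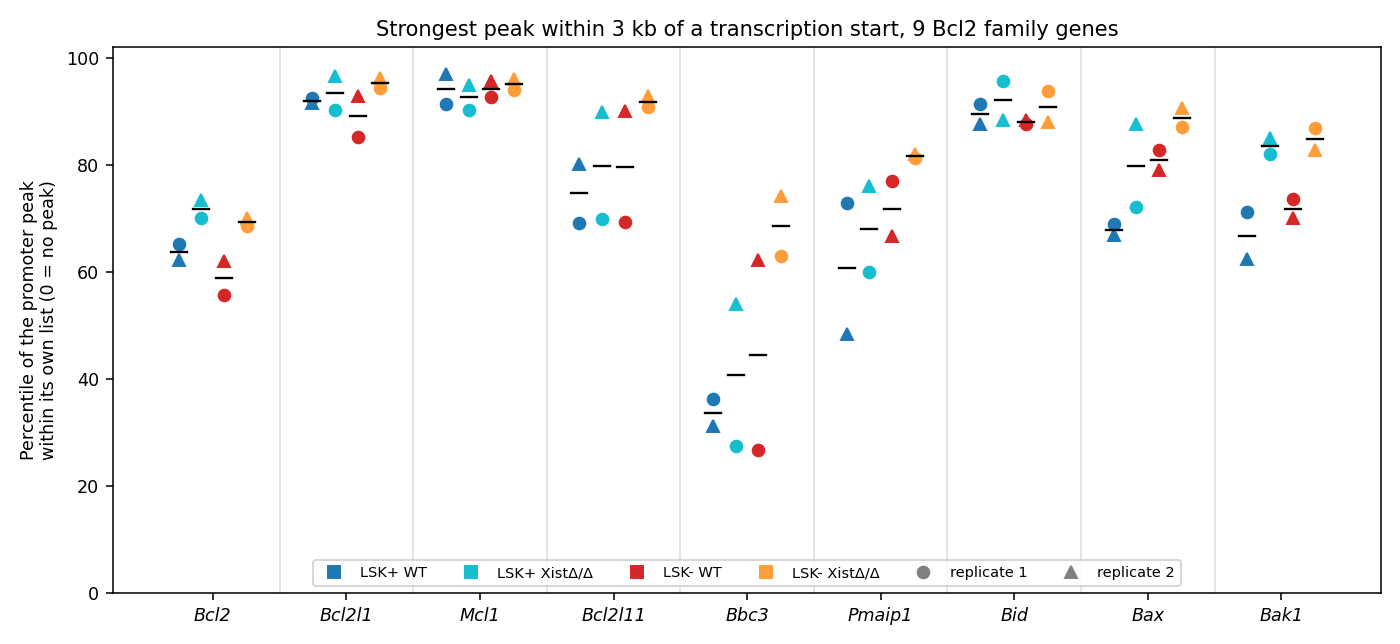
Percentile of the strongest promoter peak within its own list (y axis, 0 to 100) for the 9 genes in 8 libraries. Colours give the 4 groups, circles replicate 1, triangles replicate 2, and black bars the group means (n = 2). Mcl1 and Bid sit above 87 throughout, Bbc3 spreads from 26.9 to 74.1, and the XistΔ/Δ points of Bcl2 and Bak1 all lie above the WT points.

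Among the survival genes, Mcl1 (ENSMUSG00000038612.16, chr3:95658788-95663176, plus strand, mm10) had its promoter summit 39 bp upstream of a TSS. Its percentiles in replicates 1 and 2 were 91.4 and 96.9 (LSK+ WT), 90.4 and 95.0 (LSK+ XistΔ/Δ), 92.7 and 95.7 (LSK- WT) and 94.0 and 96.1 (LSK- XistΔ/Δ). Replicate 2 ranked above replicate 1 in every group, and the groups overlapped. Bcl2l1 (ENSMUSG00000007659.18, chr2:152780668-152831728, minus strand) ranked at 92.5 and 91.6 (LSK+ WT), 90.2 and 96.6 (LSK+ XistΔ/Δ), 85.3 and 93.0 (LSK- WT) and 94.4 and 96.3 (LSK- XistΔ/Δ). For both genes the mean difference between cell types was small against this spread, at -1.24 points for Mcl1 and 0.489 points for Bcl2l1 (LSK+ minus LSK-; two-sided exact permutation p = 0.556 and 0.833).

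Bcl2 (ENSMUSG00000057329.7, chr1:106538178-106714274, minus strand) had a weaker promoter peak than the other survival genes in each library. It ranked at 65.3 and 62.2 (LSK+ WT), 70.2 and 73.5 (LSK+ XistΔ/Δ), 55.8 and 62.1 (LSK- WT) and 68.7 and 70.1 (LSK- XistΔ/Δ). The XistΔ/Δ libraries were higher in 4 of 4 pairs, by 9.28 points on average (exact permutation p = 0.0556, the smallest that 36 assignments allow). The LSK+ libraries were also higher in 4 of 4 pairs, by 3.62 points, although the ranges overlapped (exact permutation p = 0.0556). When every list was reduced to its strongest 29829 peaks, the length of the shortest list, the genotype difference at Bcl2 became -9.49 points, with the XistΔ/Δ library higher in 1 of 4 pairs.

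Among the BH3-only genes, Bid (ENSMUSG00000004446.12, chr6:120891930-120916853, minus strand) ranked at 91.5 and 87.7 (LSK+ WT), 95.8 and 88.4 (LSK+ XistΔ/Δ), 87.7 and 88.4 (LSK- WT) and 93.8 and 88.1 (LSK- XistΔ/Δ). Bcl2l11 (ENSMUSG00000027381.16, chr2:128126038-128162547, plus strand) ranked at 69.3 and 80.2 (LSK+ WT), 70.0 and 89.9 (LSK+ XistΔ/Δ), 69.4 and 90.0 (LSK- WT) and 90.8 and 92.9 (LSK- XistΔ/Δ). In Bcl2l11 the replicates differed by up to 20.6 points within a group, more than the mean difference between cell types (-8.46 points, exact permutation p = 0.222) or genotypes (8.66 points, exact permutation p = 0.222).

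Bbc3 (ENSMUSG00000002083.13, chr7:16308393-16318205, plus strand) had the lowest promoter peak of the 9 genes in each library except LSK- XistΔ/Δ replicate 2 and LSK- WT replicate 2. It ranked at 36.3 and 31.2 (LSK+ WT), 27.4 and 54.1 (LSK+ XistΔ/Δ), 26.9 and 62.2 (LSK- WT) and 63.1 and 74.1 (LSK- XistΔ/Δ). Pmaip1 (ENSMUSG00000024521.8, chromosome 18, 66458533 to 66465565, plus strand) ranked at 72.9 and 48.5, 60.1 and 76.0, 77.0 and 66.7, and 81.3 and 82.1 in the same order. Both genes were lower in LSK+ than in LSK- libraries on average, by -19.3 and -12.4 points, yet the ranges overlapped (exact permutation p = 0.222 for each).

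Of the effector genes, Bax (ENSMUSG00000003873.11, chr7:45461697-45466898, minus strand) ranked at 68.9 and 67.0 (LSK+ WT), 72.2 and 87.6 (LSK+ XistΔ/Δ), 82.7 and 79.1 (LSK- WT) and 87.2 and 90.6 (LSK- XistΔ/Δ). The LSK- library was higher in 4 of 4 pairs, by 11.0 points on average, and a single library, LSK+ XistΔ/Δ replicate 2, reached into the LSK- range (exact permutation p = 0.111). Without that library the groups no longer overlapped. Bak1 (ENSMUSG00000057789.14, chr17:27019810-27029009, minus strand) ranked at 71.2 and 62.4 (LSK+ WT), 82.1 and 85.1 (LSK+ XistΔ/Δ), 73.6 and 70.1 (LSK- WT) and 86.9 and 82.9 (LSK- XistΔ/Δ). The mean genotype difference at Bak1 was 14.9 points (XistΔ/Δ minus WT, exact permutation p = 0.0556), and it was 10.6 points, positive in 4 of 4 pairs, at equal list length, where the ranges of the genotypes overlapped.

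These counts were read against all 16238 protein-coding genes with a promoter peak in at least 1 list. XistΔ/Δ libraries lay above WT libraries without overlap in 2 of the 9 members (22.2%) and in 7.9% of all genes, and the reverse occurred in 0 members and 0.00616% of all genes. LSK+ libraries lay above LSK- libraries without overlap in 0 members and 1.9% of all genes, and LSK- above LSK+ in 0 members and 1.73%. At equal list length, and likewise with ranking by fold enrichment, no member separated the genotypes. Counting same-numbered pairs instead, since replicate numbers paired the libraries, 4 members had one sign in 4 of 4 pairs between cell types (Bcl2 higher in LSK+; Bcl2l11, Pmaip1 and Bax higher in LSK-) and 4 between genotypes (Bcl2, Bcl2l11, Bax and Bak1, each higher in XistΔ/Δ). By the same rule 8.81% of all 16238 genes were higher in LSK+, 21.6% in LSK-, 39.4% in XistΔ/Δ and 0.142% in WT, so that 4 of 9 members higher in XistΔ/Δ was near the share of all genes. Leaving out LSK- WT replicate 1 separated the cell types at Bcl2l11 and Bbc3, leaving out LSK- WT replicate 2 did so at Pmaip1, and leaving out LSK+ XistΔ/Δ replicate 1 added Bcl2l1 and Bax to the genotype count.

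The other genes of the pathway were counted at their promoters alone. Of 13 further Bcl2 family genes, 6 had a promoter peak in all 8 lists and 2 (Bcl2l10 and Bcl2a1a) in none. Reads of Bcl2a1a, Bcl2a1b and Bcl2a1d, which are near-identical copies, may not have been assigned to one of them with the mapping filter used. LSK+ libraries lay above LSK- libraries without overlap in 1 of the 13, Bok, against 1.9% of all genes. This effector-like member ranked from 70.0 to 81.2 in LSK+ and from 35.2 to 64.3 in LSK- libraries. XistΔ/Δ libraries lay above WT libraries in 3 of the 13, Bcl2l13, Hrk and Bmf, against 7.9% of all genes. The XistΔ/Δ lists were the longer ones in all 4 pairs, and Hrk had a peak in 6 lists, at percentile 29.7 or below. All 11 caspase cascade genes had a promoter peak in all 8 lists, with a median percentile of 99.6 for Apaf1, whose product forms the apoptosome. The protease gene Htra2, 1 of the 11, was higher in LSK- without overlap, against 1.73% of all genes. None of the 5 death receptor genes and neither of the p53 arm genes, Trp53 and Mdm2, separated cell types or genotypes. Across the 31 genes, no promoter was higher in WT without overlap.

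To compare accessibility within regions, the number of fragments at the summit was used for the 45 member regions with a peak in all 8 lists. These counts were recovered as whole numbers from each peak's fold and p, and were tested by limma on the log2 scale after quantile normalisation, with replicate number as a block and adjustment over all 21360 such regions of the series. Between cell types 10 of the 45 regions passed an adjusted p of 0.05. LSK+ was higher in 4 (8.89%, against 15.1% of all regions) and LSK- in 6 (13.3%, against 13.8%), and the median log2 difference was -0.04 over the members and -0.05 over all regions. Neither share of the members exceeded that of all regions. By genotype 0 of 45 passed, with 1 at an unadjusted p under 0.05, while 0.14% of all regions passed. For the difference of the genotype effect between cell types 0 of 45 passed in limma, with 3 at an unadjusted p under 0.05, against 0.00936% of all regions.

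**Figure D2:**
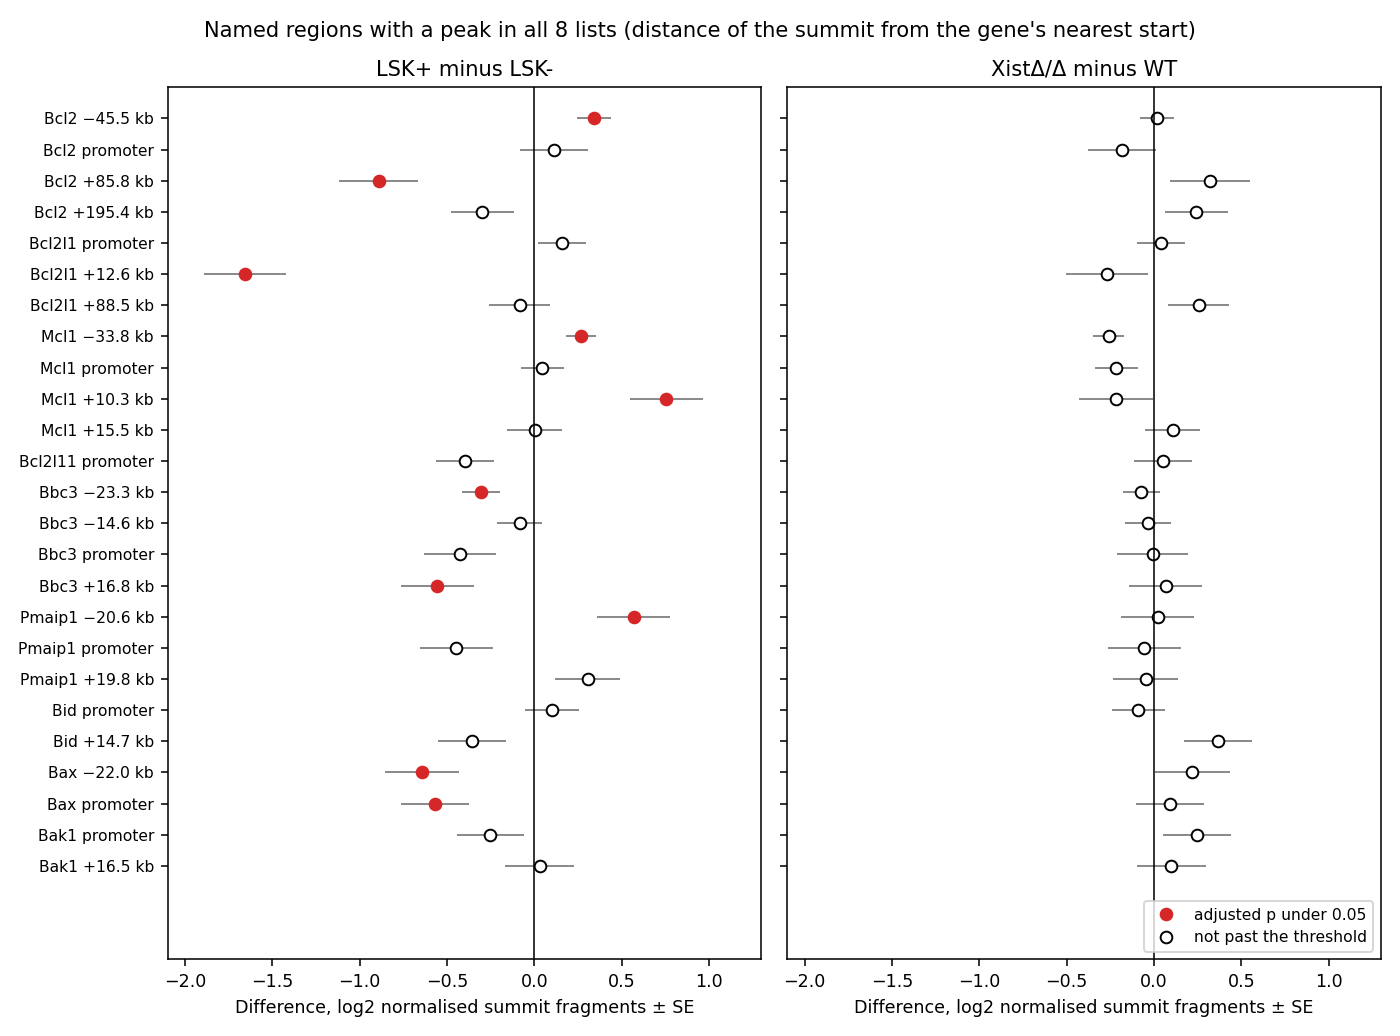
Difference in log2 normalised summit fragments (x axis, with SE) between cell types (left) and genotypes (right) for the named regions with a peak in all 8 lists. Regions are labelled by gene and by distance from its nearest TSS, and filled red points passed an adjusted p of 0.05 in limma. The 10 red points are all in the cell type panel, with Bcl2l1 +12.6 kb farthest from 0 at -1.66, and the genotype panel holds none.

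The call with the lowest adjusted p among the members lay in the Bcl2l1 gene, 12.6 kb downstream of its TSS in an intron (chr2:152817431-152818188). Its summit held 16 and 7 fragments (LSK+ WT), 15 and 15 (LSK+ XistΔ/Δ), 42 and 24 (LSK- WT) and 136 and 25 (LSK- XistΔ/Δ). In these raw counts every LSK- library was above every LSK+ library, but the background pileup was also higher in the LSK- library of each pair. Fold enrichment overlapped, at 4.94 to 7.96 in LSK+ and 6.56 to 8.61 in LSK- libraries. The difference was -1.66 ± 0.23 on the log2 scale (LSK+ minus LSK-, SE), 3.15-fold higher in LSK-, with an adjusted p of 4.27e-07 in limma. It passed without any one library and without the replicate block (adjusted p = 0.0193), and missed the threshold when log2 fold enrichment was analysed in place of fragments (-0.45, adjusted p = 0.0752). Among the strongest 29829 peaks of each list it was found in LSK+ WT replicate 2, LSK- WT replicate 2 and LSK- XistΔ/Δ replicate 1 alone. A pair of further intronic regions of Bcl2l1, 15.9 and 18.9 kb from the TSS (chr2:152814098-152814777 and chr2:152811203-152811684), had peaks in LSK- libraries only. The first ranked at percentiles 72.8, 39.1, 77.8 and 45.2 in LSK- WT 1 and 2 and LSK- XistΔ/Δ 1 and 2, and the second at 26.3, 55.8 and 26.9 in all but LSK- WT replicate 2. At the Bcl2l1 promoter the difference was 0.16 ± 0.14 and did not pass (adjusted p = 0.403), and the downstream region at the 3′ end of the gene (+49.7 kb) had percentiles of 28.3 to 61.0 in LSK+ and at most 5.3 in LSK- libraries. That region was chosen after its values were seen. Among the strongest 29829 peaks it was found in LSK+ WT replicates 1 and 2 alone (17.2 and 28.3), and the cell types overlapped.

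The summit windows of the Bcl2l1 intron are shown because they hold the cell type call with the lowest adjusted p among the members and the LSK- peaks beside it. Each spans the summit and 100 bases on either side (mm10, plus strand): chr2:152817623-152817823, chr2:152814294-152814494 and chr2:152811325-152811525. Capitals mark matches, on either strand, to the motif AGATAA of the GATA factors, which act in erythroid and megakaryocyte development among others. They also mark matches to the motif TGTGGT of the RUNX factors, which act throughout blood development. A match to the letters is a description and not a bound site.
Bcl2l1 +12.6 kb: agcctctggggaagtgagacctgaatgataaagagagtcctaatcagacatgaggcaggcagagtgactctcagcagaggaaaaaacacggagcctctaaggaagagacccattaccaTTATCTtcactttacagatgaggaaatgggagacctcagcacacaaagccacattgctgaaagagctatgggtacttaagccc
Bcl2l1 +15.9 kb: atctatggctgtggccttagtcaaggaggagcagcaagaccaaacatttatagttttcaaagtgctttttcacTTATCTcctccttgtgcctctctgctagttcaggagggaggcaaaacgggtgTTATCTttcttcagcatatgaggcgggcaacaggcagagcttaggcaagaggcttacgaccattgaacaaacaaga
Bcl2l1 +18.9 kb: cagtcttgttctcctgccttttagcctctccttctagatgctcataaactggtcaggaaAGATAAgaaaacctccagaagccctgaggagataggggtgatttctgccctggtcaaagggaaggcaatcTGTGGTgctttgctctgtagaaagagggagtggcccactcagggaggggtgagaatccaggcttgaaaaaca
All 3 windows held AGATAA, with 2 copies at +15.9 kb, and the nearest copies lay 18 to 41 bases from the summit. Across the series, 16.9% of 123259 windows of this length held that motif and 24.7% held the RUNX motif.

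At Bcl2 the intronic region 85.8 kb from the TSS (chr1:106627150-106627720) held 33 and 6 fragments (LSK+ WT), 56 and 39 (LSK+ XistΔ/Δ), 64 and 18 (LSK- WT) and 100 and 51 (LSK- XistΔ/Δ). Fold enrichment was higher in the LSK- than in the LSK+ library of the same genotype and number in each of the 4 pairs. So were these raw fragments, although the background pileup, which rises with depth, was also higher in the LSK- library of each pair. The difference was -0.89 ± 0.23 (adjusted p = 0.00236), and it did not pass without LSK+ XistΔ/Δ replicate 1 or LSK- WT replicate 1 (adjusted p = 0.0555 and 0.0563) or without the block (0.156). At Mcl1 the intergenic region 10.3 kb downstream of the nearest TSS (chr3:95668680-95669537) went the other way. It held 60 and 15 fragments (LSK+ WT), 84 and 57 (LSK+ XistΔ/Δ), 37 and 17 (LSK- WT) and 58 and 22 (LSK- XistΔ/Δ), a difference of 0.76 ± 0.21 (adjusted p = 0.0054). Without LSK+ WT replicate 1 its adjusted p was 0.0505, and without the block 0.112. The Mcl1 promoter itself showed 0.05 ± 0.12 (adjusted p = 0.819).

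The windows around these summits are shown as examples of the opposite directions at a pair of survival genes, at chr1:106627293-106627493 and chr3:95669033-95669233 (plus strand), with the RUNX motif on either strand in capitals.
Bcl2 +85.8 kb: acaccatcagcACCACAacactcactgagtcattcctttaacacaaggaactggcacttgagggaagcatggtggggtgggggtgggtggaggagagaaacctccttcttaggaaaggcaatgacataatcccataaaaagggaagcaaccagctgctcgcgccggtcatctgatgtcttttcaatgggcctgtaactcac
Mcl1 +10.3 kb: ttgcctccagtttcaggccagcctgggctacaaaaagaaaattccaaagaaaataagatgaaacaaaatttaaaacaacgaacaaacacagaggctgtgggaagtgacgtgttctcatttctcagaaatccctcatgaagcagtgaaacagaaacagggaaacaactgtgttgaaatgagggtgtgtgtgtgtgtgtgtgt

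Of the remaining calls, 4 lay at promoters of neighbouring genes inside the loci: near Kdsr in the Bcl2 locus (0.34 ± 0.10, adjusted p = 0.00767), Ensa in the Mcl1 locus (0.27 ± 0.09, 0.0172), Ccdc9 in the Bbc3 locus (-0.31 ± 0.11, 0.0277) and Dhdh in the Bax locus (-0.64 ± 0.21, 0.020). The first and second were higher in LSK+, but their sign turned when fold enrichment was analysed (-0.02 and -0.03). At Bbc3 the region 16.8 kb downstream, in an intron of Sae1, was higher in LSK- (-0.56 ± 0.21, adjusted p = 0.0409). At Pmaip1 the region 20.6 kb upstream was higher in LSK+ (0.57 ± 0.21, adjusted p = 0.0358). None of these remaining calls passed when log2 fold enrichment was analysed in place of fragments (adjusted p = 0.16 to 0.919 in limma).

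Bax was the one member whose promoter region passed. Its summit, 25 bp from a TSS, held 40 and 27 fragments (LSK+ WT), 59 and 101 (LSK+ XistΔ/Δ), 61 and 53 (LSK- WT) and 157 and 106 (LSK- XistΔ/Δ). These raw fragments were higher in LSK- in 4 of 4 pairs, but so was the background pileup, which rises with depth. In limma the log2 difference (LSK+ minus LSK-) was -0.25 with fold enrichment in place of fragments (adjusted p = 0.199). For normalised fragments it was -0.57 ± 0.19 (adjusted p = 0.0243). It missed the threshold without LSK+ WT replicate 1, LSK+ XistΔ/Δ replicate 1, LSK- WT replicate 1 or LSK- XistΔ/Δ replicate 1 (adjusted p = 0.0836 to 0.22), and without the block (0.346). The other promoters had log2 differences from -0.45 (Pmaip1) to 0.16 (Bcl2l1), of which Bcl2l11 (-0.40 ± 0.17, adjusted p = 0.0672) came closest to the threshold. The 200 bases upstream of the Bax TSS (chr7:45466899-45467098, read 5′ to 3′ on the minus strand) are shown for the effector promoter that passed.
Bax upstream: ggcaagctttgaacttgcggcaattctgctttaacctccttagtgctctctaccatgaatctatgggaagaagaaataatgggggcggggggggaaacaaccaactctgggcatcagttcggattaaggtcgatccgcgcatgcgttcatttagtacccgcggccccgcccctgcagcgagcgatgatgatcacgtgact
Neither the GATA and RUNX motifs nor those of PU.1 (GAGGAAGT) and of FOXO factors (here the letters TGTTTAC), the CTCF-like core or the full p53 site was found in this stretch on either strand. They occurred in 6.65%, 10.3%, 2.07%, 2.01%, 1.09% and 0.0322%, respectively, of the upstream stretches of 21751 coding genes.

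Of the 10 cell type calls, Bcl2l1 +12.6 kb alone passed without each library in turn and without the block. The number that passed was 5, 2, 3 and 5 without LSK+ WT replicate 1, LSK+ XistΔ/Δ replicate 1, LSK- WT replicate 1 and LSK- XistΔ/Δ replicate 1, respectively. No call turned its sign in these fits.

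Since limma needs a peak in every list, regions that appear and disappear were followed by their percentiles. Over the 117 member regions listed in at least 4 libraries, LSK- lay above LSK+ without overlap in 18 (15.4%, against 7.28% of 60447 regions) and LSK+ above LSK- in 4 (3.42%, against 4.18%). XistΔ/Δ lay above WT in 9 (7.69%, against 6.58%) and WT above XistΔ/Δ in 0 (against 0.00496%). With the strongest 29829 peaks of each list, 7 of 61 regions were higher in LSK- (11.5%, against 10.9%) and 5 in LSK+ (8.2%, against 13.1%). The share of LSK- regions thus lay above the background in the whole lists and near it at equal list length. At equal list length WT lay above XistΔ/Δ without overlap in 1 of 61 (1.64%, against 0.359%), and XistΔ/Δ above WT in 0 (against 0.457%). The 1 region was Bax +6.9 kb, within 3 kb of another gene's TSS and named after its values were seen. It ranked at 90.9 to 94.8 in WT and at 89.5 to 90.3 in XistΔ/Δ libraries.

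In the whole lists the loci contributed 57 to 130 peaks in LSK+ and 83 to 160 in LSK- libraries. Among the strongest 29829 peaks they contributed 53, 57, 53 and 56 in the LSK+ libraries and 66, 68, 68 and 67 in the LSK- libraries, so that the cell types did not overlap while the genotypes did. Most of the gap came from Bcl2l11, which had 3 to 5 of these peaks in LSK+ and 7 to 9 in LSK- libraries, and from Bid, with 3 to 5 and 5 to 10. Bak1 had 7 to 9 in LSK+ and 5 to 8 in LSK- libraries. The same count was not made for other sets of genes, so whether the gap is particular to these loci was not tested. By region, the share higher in LSK- at equal list length was near that of all regions, as given above.

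**Figure D3:**
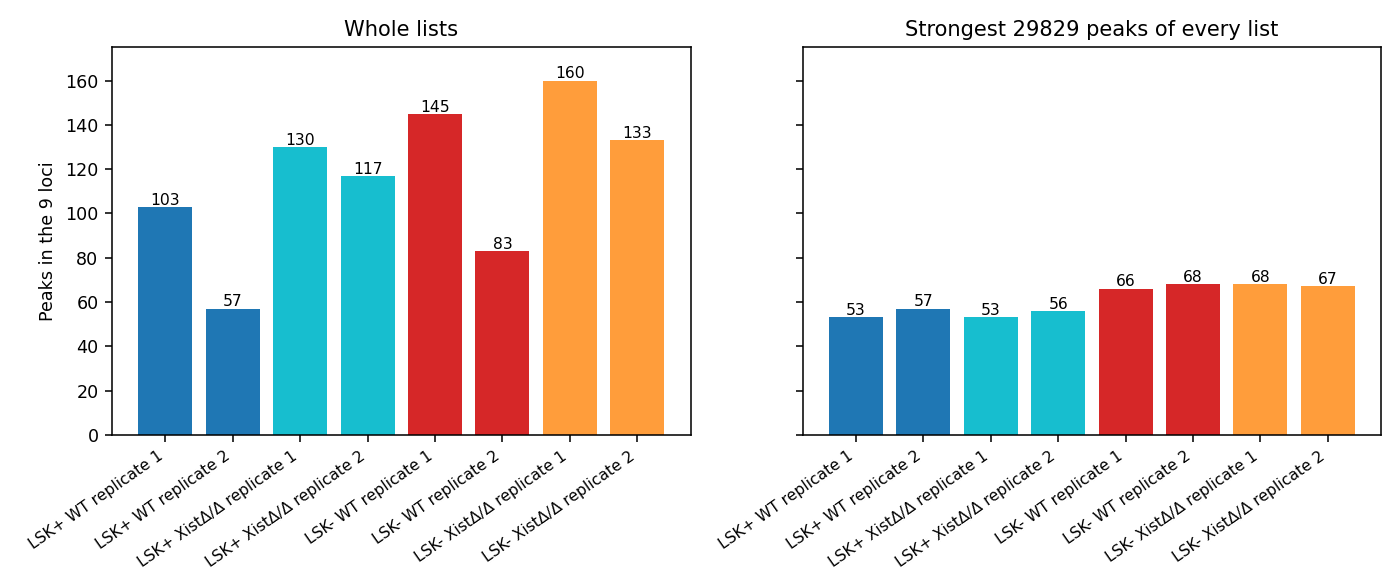
Number of peaks in the 9 loci (y axis) in each library, in the whole lists (left) and among the strongest 29829 peaks of every list (right). The right panel shows 53 to 57 peaks in the LSK+ and 66 to 68 in the LSK- libraries.

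Regions with a peak in at least 3 libraries of one class and in none of the other were listed by locus. There were 19 such LSK- regions (9.5% of 200, against 4.82% of all 123260), 3 LSK+ regions (1.5%, against 2.9%), 3 XistΔ/Δ regions (1.5%, against 1.95%) and 0 WT regions (against 0.00406%). The LSK- regions lay in all 9 loci, 17 of them distal and 8 inside the member gene. All 19 had the most fragments in LSK- XistΔ/Δ replicate 1, the deepest library, and 9 had no peak in LSK- WT replicate 2, the shortest LSK- list. With the strongest 29829 peaks the LSK- rule was met by 7 of 104 member regions (6.73%, against 6.29% of all), of which 3 were among the 19, and the LSK+ rule by 3 (2.88%, against 5.76%). The 3 were Bcl2l1 +15.9 kb, Bcl2l11 +18.1 kb and Bid +74.9 kb. The XistΔ/Δ regions, at Bcl2 +34.9 kb, Bcl2l1 +95.1 kb and Bcl2l11 +85.4 kb, had percentiles of at most 55.7, and none met the rule at equal list length.

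**Figure D4:**
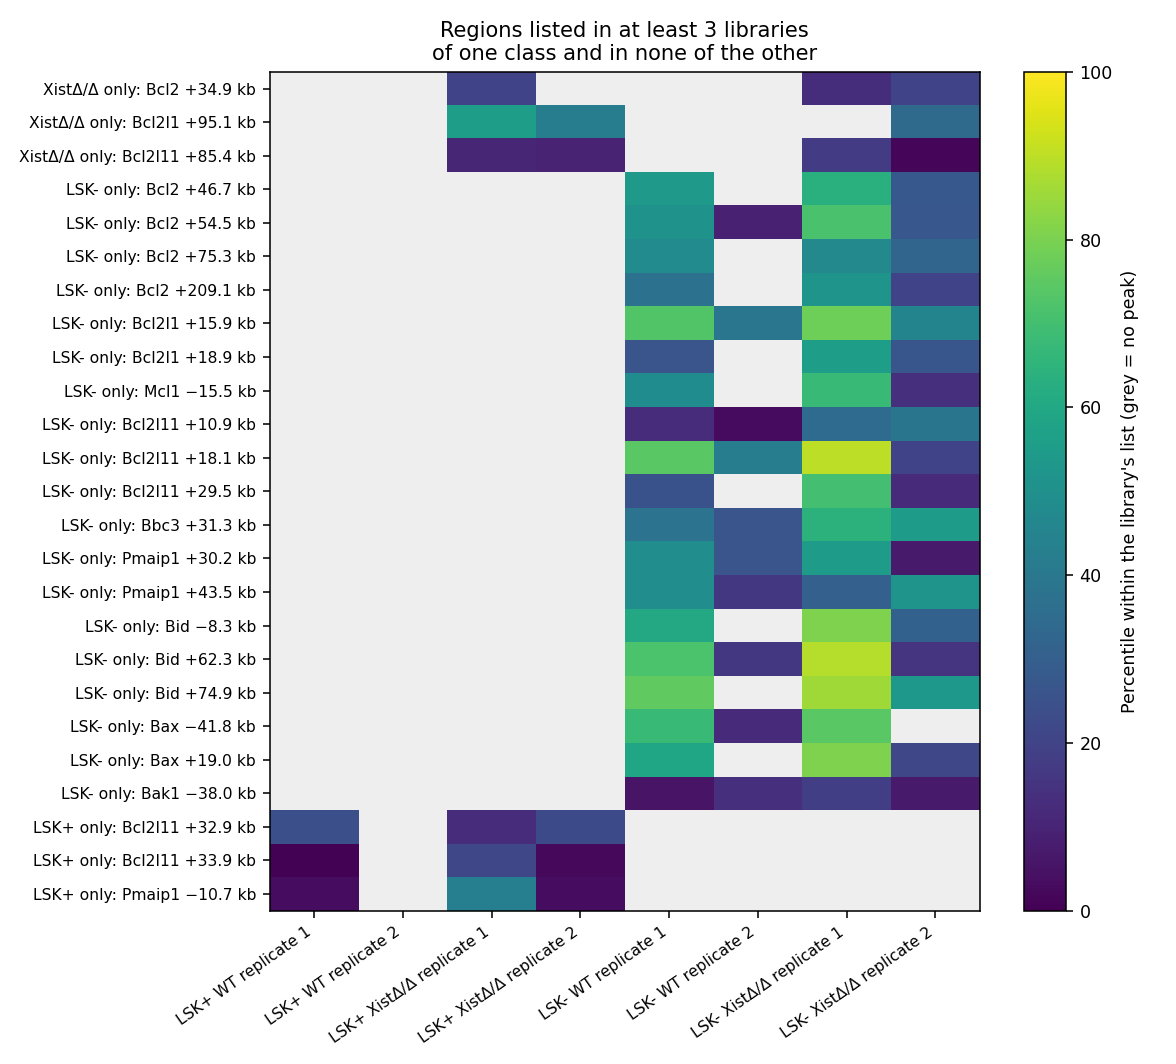
Percentile within the list (colour, grey for no peak) of the 25 regions with a peak in at least 3 libraries of one class and in none of the other, by library (columns). The 19 LSK- regions reach percentile 89.8 (Bcl2l11 +18.1 kb), whereas the 3 LSK+ regions stay at or below 43.1.

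Bcl2l11 held the strongest of these regions. The intronic region 18.1 kb from its TSS (chr2:128143596-128144532) ranked at percentiles 74.2 and 41.9 (LSK- WT) and 89.8 and 20.0 (LSK- XistΔ/Δ), from 46, 17, 174 and 13 fragments, and had no peak in the LSK+ libraries. Its replicate 2 libraries were low in both genotypes. The region 41.2 kb upstream, in an intron of Acoxl (chr2:128084262-128085138), ranked at 91.5, 45.0, 94.2 and 77.8 in the LSK- libraries, but at 0, 0, 8.5 and 2.2 in the LSK+ libraries, and the region 41.1 kb downstream of the TSS (chr2:128166689-128167553) at 86.5, 58.4, 94.3 and 59.8 against 0, 9.6, 29.8 and 36.5. Both flanks, chosen after their values were seen, also separated the cell types among the strongest 29829 peaks. The regions with LSK+ peaks alone in this locus, over an exon at +32.9 and +33.9 kb, ranked at 24.4 or below. The Bcl2l11 promoter peaks were present throughout, as given above.
The windows at +18.1 kb (chr2:128144057-128144257) and -41.2 kb (chr2:128084724-128084924), plus strand, are shown for the gene with the largest change in number of strong peaks, with matches to the GATA and FOXO motifs on either strand in capitals.
Bcl2l11 +18.1 kb: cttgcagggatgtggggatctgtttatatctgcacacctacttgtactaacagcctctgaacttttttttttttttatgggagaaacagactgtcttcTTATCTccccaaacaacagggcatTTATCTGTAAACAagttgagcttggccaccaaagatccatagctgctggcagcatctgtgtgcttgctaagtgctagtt
Bcl2l11 -41.2 kb: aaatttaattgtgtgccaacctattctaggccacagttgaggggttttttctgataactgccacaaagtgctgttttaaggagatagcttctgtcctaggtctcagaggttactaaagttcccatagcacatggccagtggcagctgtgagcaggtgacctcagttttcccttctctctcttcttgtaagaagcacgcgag
The first held 2 matches to the GATA letters, the second of them directly followed by the FOXO letters. FOXO letters occurred in 2.49% of all windows. The flank at -41.2 kb held none of the motifs.

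**Figure D5:**
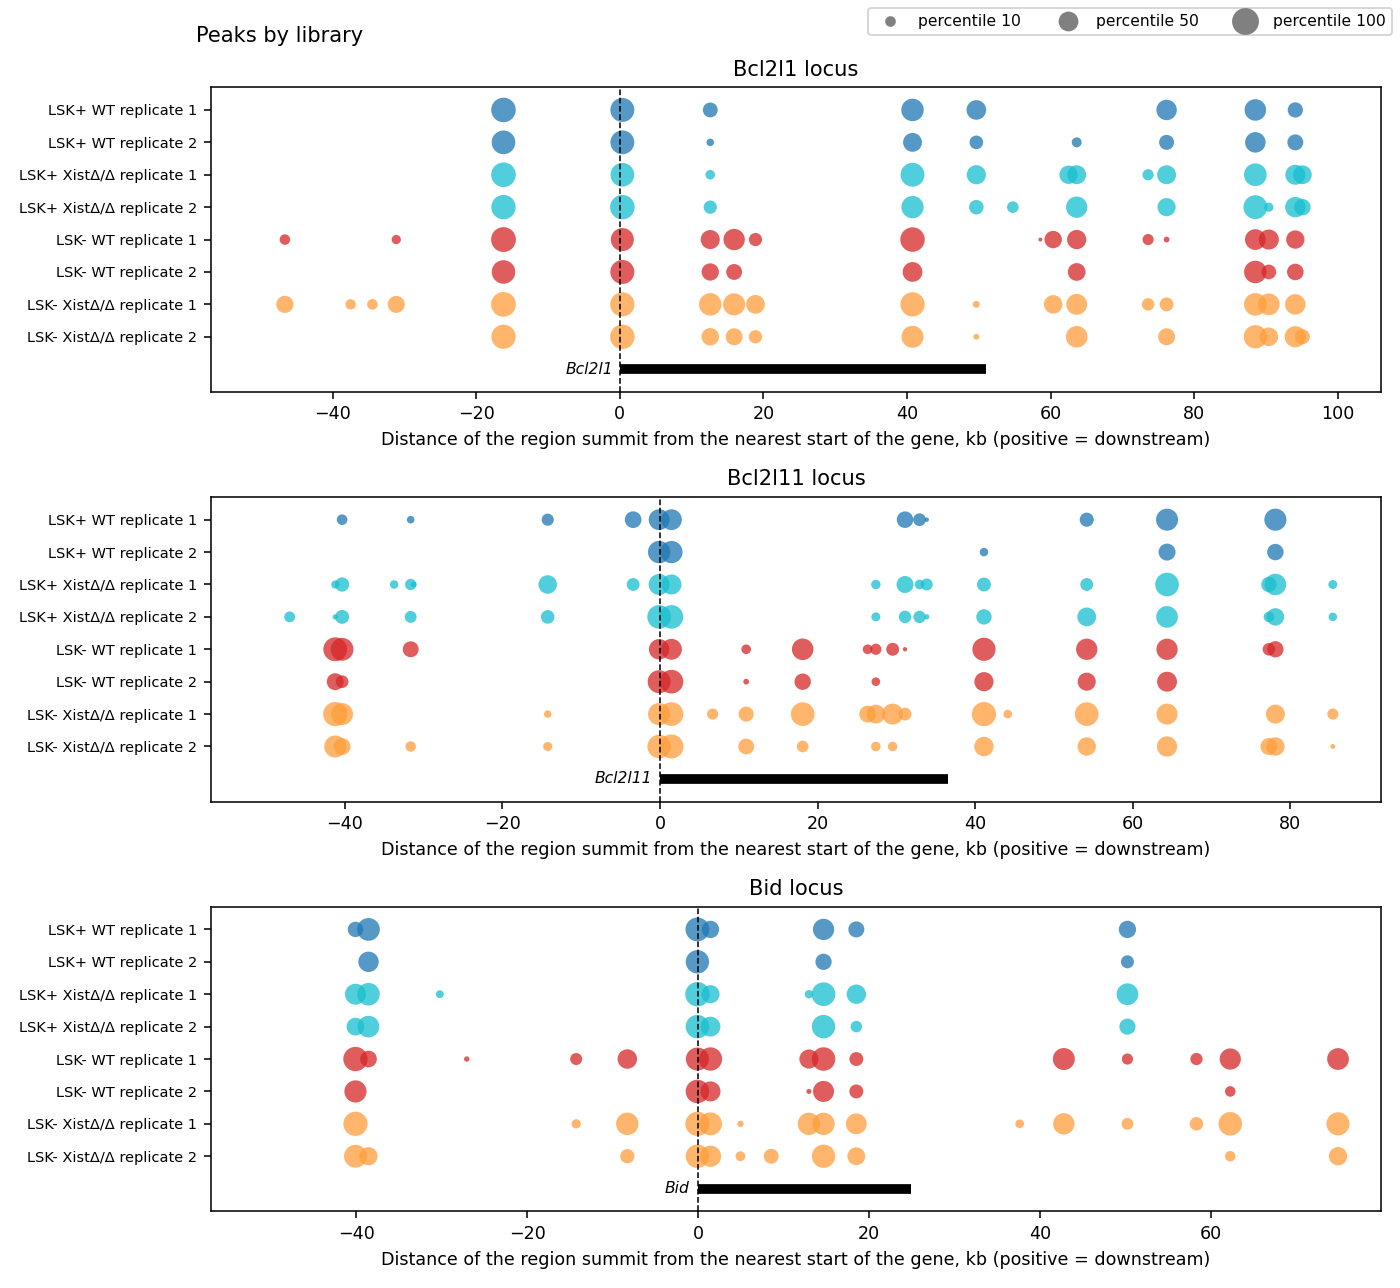
Peaks of the 8 libraries (rows, coloured by group) at the Bcl2l1, Bcl2l11 and Bid loci against the distance from the gene's nearest TSS in kb (x axis). Dot area rises with the percentile within the list, and the black bar is the gene. Dots at Bcl2l1 +15.9 kb, Bcl2l11 +18.1 kb and Bid +62.3 kb are found in LSK- rows and in no LSK+ row.

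At Bid a second promoter-window peak, 1.5 kb inside the gene in an intron (chr6:120914523-120915527) and 401 bp from a TSS of Gm44260, varied where the TSS peak did not. It ranked at 47.2 and 0 (LSK+ WT), 52.1 and 62.7 (LSK+ XistΔ/Δ), 87.7 and 63.9 (LSK- WT) and 84.6 and 72.0 (LSK- XistΔ/Δ). All LSK- libraries were above all LSK+ libraries, also among the strongest 29829 peaks. Farther upstream, in an intron of Mical3, neighbouring regions ran in opposite directions. The region at -38.6 kb (chr6:120955104-120955688) ranked at 66.1 to 82.8 in LSK+ and at 0 to 52.2 in LSK- libraries, whereas the region at -40.1 kb (chr6:120956371-120957590), within 3 kb of a TSS of Gm43915, ranked at 0 to 69.9 in LSK+ and at 78.8 to 95.4 in LSK- libraries. Within the neighbouring Bcl2l13 gene, regions at +62.3 and +74.9 kb from the Bid TSS (chr6:120854233-120854895 and chr6:120841778-120842341) had peaks in LSK- libraries only, at percentiles of up to 88.9 and 85.8, and the region at +50.2 kb ranked at 25.6 to 75.5 in LSK+ and 0 to 20.5 in LSK- libraries. The regions at +1.5, -38.6, -40.1 and +50.2 kb were chosen after their values were seen.
The opposite pair and the Bcl2l13 region are shown at chr6:120956832-120957032, chr6:120955306-120955506 and chr6:120854476-120854676, plus strand, with the GATA and RUNX motifs on either strand in capitals.
Bid -40.1 kb: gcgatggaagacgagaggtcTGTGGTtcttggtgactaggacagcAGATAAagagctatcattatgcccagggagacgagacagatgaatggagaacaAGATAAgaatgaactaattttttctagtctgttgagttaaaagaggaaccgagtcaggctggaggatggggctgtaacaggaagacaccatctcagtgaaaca
Bid -38.6 kb: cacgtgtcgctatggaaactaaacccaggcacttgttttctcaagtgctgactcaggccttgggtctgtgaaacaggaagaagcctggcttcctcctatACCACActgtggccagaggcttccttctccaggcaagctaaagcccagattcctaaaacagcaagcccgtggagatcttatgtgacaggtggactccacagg
Bid +62.3 kb: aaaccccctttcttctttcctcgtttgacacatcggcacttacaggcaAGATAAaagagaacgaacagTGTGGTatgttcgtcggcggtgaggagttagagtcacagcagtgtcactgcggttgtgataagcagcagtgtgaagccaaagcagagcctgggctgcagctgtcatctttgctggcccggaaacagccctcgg
The window higher in LSK- at -40.1 kb held AGATAA in 2 copies, and the window higher in LSK+ at -38.6 kb held none. One of those copies lay 2 bases from the summit. The window at +1.5 kb, also higher in LSK-, held 0 copies, and a link between motif and direction was not tested.

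At Bbc3 the region 31.3 kb from the TSS, in an intron of Sae1 (chr7:16340673-16341314), had peaks in all 4 LSK- libraries and in no LSK+ library, at percentiles 38.2, 26.5, 64.3 and 54.9. Its window (chr7:16340784-16340984, plus strand) is shown because it held 3 neighbouring matches to the RUNX letters, in capitals.
Bbc3 +31.3 kb: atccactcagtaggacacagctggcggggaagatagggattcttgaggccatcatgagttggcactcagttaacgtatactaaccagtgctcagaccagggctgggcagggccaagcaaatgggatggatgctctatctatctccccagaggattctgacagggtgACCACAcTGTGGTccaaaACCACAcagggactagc
At Pmaip1 the regions at +30.2 and +43.5 kb likewise had peaks in all 4 LSK- and no LSK+ libraries, at percentiles of 7.3 to 55.3. Of the LSK- regions in the effector loci, Bak1 -38.0 kb ranked at 18.5 or below, whereas Bax +19.0 kb reached 80.5 in LSK- XistΔ/Δ replicate 1.

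Not all strong distal regions varied. In each locus the distal region with the highest median percentile was followed as a reference point. At Mcl1 +15.5 kb it ranked at 67.0 to 93.1, with a cell type difference of 0.00 ± 0.16 (adjusted p = 0.996), at Bbc3 -14.6 kb at 86.0 to 95.2 (-0.08 ± 0.13, adjusted p = 0.667), and at Bak1 +16.5 kb at 57.0 to 90.0 (0.03 ± 0.20, adjusted p = 0.929). At Pmaip1 +19.8 kb the difference was 0.30 ± 0.19 (adjusted p = 0.221) and at Bcl2l1 +88.5 kb -0.08 ± 0.18 (adjusted p = 0.756). These intervals still allow changes of a size that passed at other regions. At Bax +15.3 kb and Bcl2l11 +54.2 kb the strongest distal region had no peak in LSK+ WT replicate 2, the shortest list. At Bcl2 +195.4 kb and Bid +14.7 kb the XistΔ/Δ minus WT difference was 0.87 ± 0.25 and 0.95 ± 0.27 among LSK+ libraries, against -0.38 ± 0.25 and -0.21 ± 0.27 among LSK- libraries. Neither this contrast between cell types (unadjusted p = 0.00118 and 0.00448, adjusted p = 0.932 and 0.951 in limma) nor the genotype effect at either region (0.24 ± 0.18 and 0.37 ± 0.19) passed the threshold. LSK+ WT replicate 2, the shallowest library, held 16 and 15 fragments at these summits against 70 and 46 in replicate 1.

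The motif letters were counted in the windows of all 200 member regions. The GATA motif was found in 34, the RUNX motif in 48, the PU.1 motif in 16 (7.06% of all regions), the FOXO motif in 7, the CTCF-like core in 10 (4.88% of all regions) and the full p53 site in 0 (0.043% of all regions). The GATA motif was found in 9 of the 19 LSK- regions, where it occurred in 49.0% of the 5939 regions of the series that met the same rule and in 5.76% of the 3576 regions that met the LSK+ rule. It was found in 0 of the 15 promoter regions of the members. The promoter windows had a median GC content of 68.2%, against 50.8% over all member regions and 49.8% over all regions of the series.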

How the data were processed

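The 8 ATAC-seq libraries were processed by the authors with Trim Galore, Bowtie2 2.3.5.1 and SAMtools 1.10 (mapping quality under 30 and mitochondrial reads removed), and peaks were called per library on mm10 with MACS2 2.2.7.1 at q 0.01. Use of a control or removal of duplicates is not given in the sources used here. The deposited lists give fold enrichment as a ratio, −log10 p and −log10 q, a score derived from q, and the summit offset in bp. Replicates were sequenced on different instruments by number.

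Peaks overlapping by 1 bp were merged into regions and placed on GENCODE M21. Whole summit fragments were recovered from fold and p (relative tolerance 0.0001) and tested with limma 3.58.1 in R 4.3.3, trend fitted, over regions with a peak in all 8 lists, with replicate number as block, since deviations of same-numbered libraries correlated in every pair of groups (r = 0.358 to 0.697). Benjamini-Hochberg adjustment covered 21360 regions. The fit had 3 residual and 42.2 prior degrees of freedom, so the limma p-values rested mostly on spread pooled over regions. Percentiles were compared by exact permutation within the other factor (36 assignments). In simulated data for the cell type contrast over 21360 regions, 36.6% of regions changed by a log2 of 1 and 94.3% of those changed by 2 were recovered. The simulation changed 112 and 88 regions, respectively, and was built with the same replicate block. In the data 3235 and 2949 regions were called higher in LSK+ and LSK-. Since the adjustment depends on how many regions change, the simulated shares do not give the recovery in the data. Named regions were each locus's promoter region, its highest-ranking distal region, all limma calls and all regions with a peak in at least 3 lists of one class and none of the other. Members, lists and tests were chosen with earlier results of these data known. Depth was read from the background pileup because library totals were not used here. Alternatives covered list length, ranking, windows, thresholds, scaling, block and libraries. Results for some marker and pathway genes are not reported here.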

Additional observations from a re-analysis of the deposited data

Results flagged for a closer look

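In the whole lists, the Mcl1 promoter percentile moved in opposite directions with genotype in the cell types. The XistΔ/Δ library ranked below the WT library of the same number in both LSK+ pairs and above it in both LSK- pairs, and the mean XistΔ/Δ minus WT difference in LSK+ minus that in LSK- was -2.37 percentile points. At equal list length the opposite directions were not seen, and the XistΔ/Δ library ranked below the WT library in every pair. The mean XistΔ/Δ minus WT difference there was -4.96 percentile points. The difference between the cell types was not tested for percentiles, and for the summit fragments of this promoter limma gave an adjusted p of 0.959. The limma estimates of XistΔ/Δ minus WT were negative in both cell types, at -0.33 ± 0.17 (LSK+) and -0.10 ± 0.17 (LSK-) on the log2 scale.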

How the results depend on the processing

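Of 9 promoters, those separated by genotype numbered 2, and 0 at equal list length or when ranked by fold enrichment; with the replicate block (same sign in 4 of 4 pairs) the counts were 4 by cell type and 4 by genotype, and 39.4% of all genes were higher in XistΔ/Δ by that rule. Leaving out 1 library gave 0 to 2 by cell type and 2 to 4 by genotype. Cell type calls in limma numbered 10, against 3 with log2 fold enrichment and 1 with no replicate block, and 2 to 9 without 1 library, the fewest without LSK+ XistΔ/Δ replicate 1. With log2 fold enrichment the differences at Bcl2 -45.5 kb and Mcl1 -33.8 kb reversed to -0.0216 and -0.0264. With median centring 7 of the 10 calls were kept, and with log2 fold enrichment 2 were kept. Genotype and its difference between cell types gave 0 calls under every alternative run. At equal list length, added after the data were seen, regions higher in LSK- fell from 18 to 7 and LSK--only regions from 19 to 7. Without 1 library, also added later, regions higher in LSK+ numbered 4 to 12 (12 without LSK+ WT replicate 2, the shortest list) and those higher in LSK- 18 to 27 (27 without LSK- WT replicate 2). The cause of these shifts was not tested. A peak absent from a short list may lie below its calling threshold.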
